A study of Homo sapiens with 8 samples.

Results

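The genes described here encode the proteins of the cytosolic ribosome. They were chosen by symbol: protein-coding genes named RPL or RPS with a number (and a closing A or X where present), plus RPLP0, RPLP1, RPLP2 and RPSA, and without RPS27A. This gave 76 of the 63677 gene IDs that were counted, 46 of the large (60S) subunit and 30 of the small (40S) subunit, on 21 chromosomes. Their RNA was read in 8 libraries of PC9, a human lung adenocarcinoma cell line, in 4 groups of 2. The shHSF1 group was PC9-BrM3, the metastatic subline of PC9, transduced with a lentiviral, doxycycline-inducible Tet-pLKO hairpin against HSF1 (clone 7480, 1 hairpin sequence). The shNTC group was PC9-BrM3 with the non-targeting Tet-pLKO hairpin. Both were selected in puromycin for 5 days and given doxycycline at 500 ng/mL for 48 h. The PC9-BrM3 and PC9 parental groups were not transduced and grew for 48 h before RNA was taken. The question behind the first comparison is what depends on HSF1, the transcription factor that drives chaperone genes in stressed and cancer cells, and the question behind the second is what distinguishes the metastatic subline. Nothing in the labels tells whether the replicates came from different cultures, so a p-value reflects the spread of these particular libraries, which may be technical.

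A ribosome holds a single copy of nearly every one of these proteins, and cells make them in step with ribosomal RNA. Their mRNAs are short, abundant and mostly begin with a C followed by a run of pyrimidines, the 5′ terminal oligopyrimidine (TOP) motif, through which mTORC1 and LARP1 set how well they are translated. TOP control acts on translation and mRNA stability, and read counts show only how much mRNA was present. Ribosomal proteins that are made but not assembled are unstable, and several of them, such as RPL5, RPL11 and RPL23, bind MDM2.

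The start sites of the members are shown because this motif is the feature they share. RefSeq promoter windows (build GRCh38.p14, 250 bases before to 50 after the start) were found for 61 of the 76 members. In 45 of these (73.8%) the start base was a C followed by at least 4 further pyrimidines, which was so for 1404 of 27305 genes in the same table (5.14%). With the run allowed to begin within 5 bases of the start, 52 members (85.2%) had it, against 25.2% of all genes. Each line below gives 15 bases before the start and 15 from it, on the gene's own strand, for some of the members on which the results turn. RPL23 was among the members without a window, so neither this run nor the heat shock units below were searched for it. RPL15 is not shown either. Capitals mark the pyrimidine run that begins at the start base.
RPL22, chr1:6199581-6199610, minus strand: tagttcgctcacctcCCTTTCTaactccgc
RPL36A, chrX:101390996-101391025, plus strand: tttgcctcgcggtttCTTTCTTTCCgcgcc
RPL41, chr12:56116618-56116647, plus strand: cggaacttcgcctttCTCTCggccttagcg
RPL21, chr13:27251543-27251572, plus strand: cggccccgcctctttCCTTTCggccggaac
RPL12, chr9:127451392-127451421, minus strand: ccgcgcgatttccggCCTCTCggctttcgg
RPLP0, chr12:120201097-120201126, minus strand: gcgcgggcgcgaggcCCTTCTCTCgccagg
RPLP1, chr15:69452803-69452832, plus strand: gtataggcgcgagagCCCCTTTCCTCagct
RPLP2, chr11:809952-809981, plus strand: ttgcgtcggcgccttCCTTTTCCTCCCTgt
RPS15, chr19:1438381-1438410, plus strand: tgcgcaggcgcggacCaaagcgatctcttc
RPS26, chr12:56041903-56041932, plus strand: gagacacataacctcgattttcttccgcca
RPS15 and RPS26 lack the run at the start base that RefSeq lists, while the other 8 carry it. The same windows were searched on both strands for a pair of heat shock element units, GAANNTTC or TTCNNGAA. It was found in 11 of 61 members (18%), RPL22, RPLP0 and RPLP2 among them, and in 16.2% of all genes. The form with 3 units in alternating orientation, which contains the shorter one, was in 0 of 61 members and in 0.608% of all genes. These are matches of letters in a window, not measured binding.

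Libraries held 33550140 to 56715336 gene-assigned counts, and levels are given as CPM, that is, counts scaled by library size. A gene with 0 reads could still have had as many as 3 counts, or 0.0529 to 0.0894 CPM depending on the library. Epithelial markers were high in every library (EPCAM 360 to 568 CPM, KRT8 779 to 2186 CPM), and PTPRC and COL1A2 stayed at or below 0.0771 CPM. Of the lung lineage genes, NKX2-1 was nearly absent (at most 0.196 CPM) and NAPSA low (at most 0.762 CPM). SFTPB had 11.5 and 15.6 CPM in PC9 parental, 1.58 and 2.65 CPM in PC9-BrM3 and at most 1.14 CPM in the transduced libraries. These marker levels were scaled over all 8 libraries together. HSF1 itself had 16.3 and 14.1 CPM with shHSF1, against 185 and 189 CPM with shNTC, a log2 fold change of -3.61 ± 0.08 (SE; 12.2-fold lower, edgeR adjusted p = 2.66e-08). In the subline HSF1 had 52.8 and 50.7 CPM, against 45.3 and 47.7 CPM in PC9 parental (log2 fold change 0.15 ± 0.14, edgeR adjusted p = 0.531). The file headers name lane 1 for the transduced and lane 7 for the untransduced libraries, so tests were made only within each set. PC9-BrM3 replicate 2 stood apart: 17.3% of its counts lay on mitochondrial chromosome genes, against 5.40% in its replicate and 1.40% to 6.23% in the other 6 libraries.

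Ribosomal protein genes took a few percent of all counts. Their share was 3.35% and 3.50% with shHSF1, against 3.23% and 3.18% with shNTC. It was 3.09% and 1.73% in PC9-BrM3, against 3.85% and 4.20% in PC9 parental. Both shHSF1 libraries lay above both shNTC libraries, and both PC9-BrM3 libraries lay below both PC9 parental libraries. The distance between the PC9-BrM3 replicates (2.41% ± 0.955, SD, n = 2) was nearly as large as that to PC9 parental (4.03% ± 0.246, SD, n = 2). Without mitochondrial chromosome genes in the total, the shares were 3.26% and 2.10% in PC9-BrM3 and 4.11% and 4.39% in PC9 parental. With 2 libraries against 2, an exact permutation test cannot pass 0.05, so no p is given for these shares. The 60S members had 1.73 to 1.75 times the counts of the 40S members in the transduced libraries and 1.47 to 1.56 times in the untransduced ones. In bulk RNA, fewer cells expressing a gene and less of its RNA per cell cannot be told apart.

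**Figure D1:**
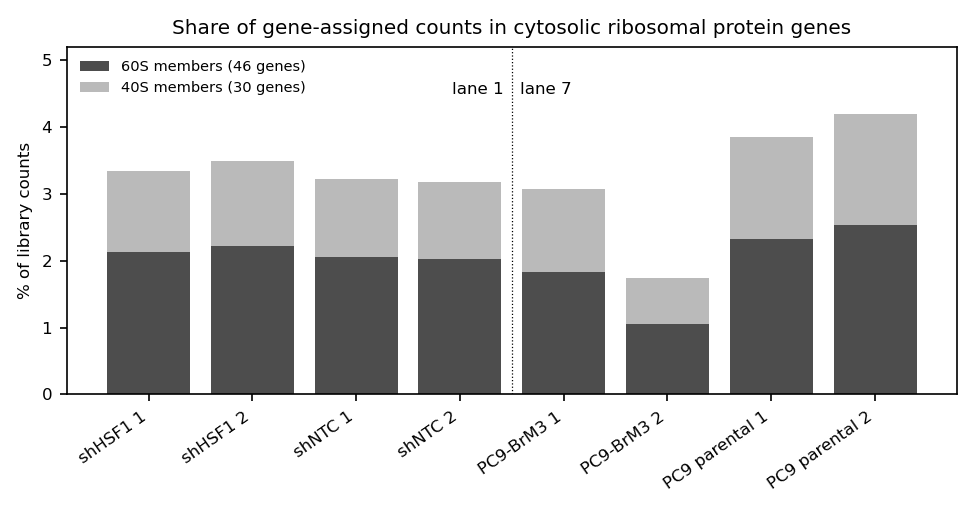
Share of each library's gene-assigned counts (%, vertical axis) in the 46 large subunit (dark) and 30 small subunit (light) genes, 1 bar per library. PC9-BrM3 replicate 2 is lowest at 1.73% and PC9 parental replicate 2 highest at 4.20%.

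Levels differed widely among the members although a ribosome uses most of the proteins in equal numbers. Per exon length and scaled library size (RPKM), the mean over 8 libraries was 1123 RPKM for RPS12, a protein of the 40S head region. It was 742 RPKM for RPL8, which lies at the peptidyl transferase centre. RPL8 had 350 to 478 RPKM in the untransduced libraries and 1014 to 1144 RPKM in the transduced ones, so its high mean rests on the transduced set. At the other end were RPL17 (3.59 RPKM), a protein at the rim of the peptide exit tunnel, RPS10 (2.58 RPKM) and RPL36A (1.41 RPKM). The counting did not include reads that fit several places, and every member has at least 1 named pseudogene, 1581 in all. Reads assigned to those pseudogenes were 4.35% to 5.41% of the reads of members and pseudogenes together. RPL17 shares 32% of its exon length with the read-through gene RPL17-C18orf32, and RPS10 shares 28.9% with RPS10-NUDT3, so their reads can be lost in the same way. The lowest and the highest of these shares were those of PC9-BrM3 replicates 2 and 1. Low levels of single members are therefore uncertain as levels. The same counting was used in each library, but whether a gene lost the same part of its reads in each was not tested.

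With the HSF1 hairpin, most ribosomal protein genes moved little and a few fell clearly. Of 75 tested members, 9 were higher and 6 lower with shHSF1 than with shNTC (edgeR quasi-likelihood test, Benjamini-Hochberg adjusted p under 0.05 over 16840 genes), which is 12% and 8% of the members. Over all tested genes the shares were 22.2% higher and 23.5% lower. The order of the higher shares depended on the scaling, as given with the rises below. The median log2 fold change of the members was 0.07, with an interquartile range from -0.02 to 0.14, against a median of 0.01 and an interquartile range from -0.34 to 0.31 for all tested genes. The SD of the fold changes was 0.25 over members and 0.72 over all genes on the log2 scale. Fold changes were above 0 for 52 members (50.6% of all genes) and below 0 for 23 (49.4% of all genes). The groups were fully separated for 47 members (62.7%), 36 with shHSF1 above and 11 below, against 73.3% of all genes. The 6 members that fell include 5 of the 60S subunit, RPL23, RPL36A, RPL22, RPL41 and RPL15, and RPS26 of the 40S subunit.

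RPL23 sits on the face of the 60S subunit that meets the 40S subunit (gene on chromosome 17, 37004118 to 37010096, minus strand, GRCh37). It had 226 and 241 CPM with shHSF1, against 550 and 534 CPM with shNTC. The shHSF1 libraries were both less than the lower shNTC library by a wide margin, a log2 fold change of -1.21 ± 0.06 (SE; 2.32-fold lower, edgeR adjusted p = 4.37e-07). No other member fell as far. Under 13 alternative settings the fold change stayed between -1.26 and -1.15 on the log2 scale and passed the test each time.

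RPL22 is a 60S protein that ribosomes can do without and that has a near copy, RPL22L1. It had 69.1 and 70.2 CPM with shHSF1, against 110 and 104 CPM with shNTC, with replicates close together in both groups (log2 fold change -0.62 ± 0.06, edgeR adjusted p = 4.17e-05). RPL22L1 had 102 and 109 CPM with shHSF1, against 99.1 and 94.9 CPM with shNTC, which did not pass the test (log2 fold change 0.12 ± 0.07, edgeR adjusted p = 0.153).

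RPL36A, which lies near the exit site of transfer RNA, was the lowest of the tested members. It had 137 and 102 reads with shHSF1, against 259 and 288 reads with shNTC, or 3.69 and 2.99 CPM against 5.54 and 8.05 CPM. The groups did not overlap, though the shNTC replicates differed from each other (log2 fold change -1.01 ± 0.21, edgeR adjusted p = 0.00292). Its near copy RPL36AL had 65 and 71 CPM with shHSF1, against 74.4 and 68.2 CPM with shNTC, groups that overlapped (edgeR adjusted p = 0.486). RPL22 and RPL36A passed in all 13 alternative settings as well.

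The other 3 falls were smaller. RPL15, a core protein of the 60S subunit, had 208 and 207 CPM with shHSF1, against 242 and 243 CPM with shNTC (log2 fold change -0.22 ± 0.05, edgeR adjusted p = 0.00718). Replicates of RPL15 were nearly equal in both groups. RPS26, at the mRNA exit of the 40S subunit, had 14.3 and 15.2 CPM with shHSF1, against 20.1 and 18.7 CPM with shNTC (log2 fold change -0.39 ± 0.10, edgeR adjusted p = 0.0096). RPL41, a very small peptide that bridges the subunits, had 11 and 9.6 CPM with shHSF1, against 16.1 and 12 CPM with shNTC. Its shHSF1 libraries stood just below the lower shNTC library (log2 fold change -0.45 ± 0.15, edgeR adjusted p = 0.0356). RPS26 lost the call without shNTC replicate 1 or shHSF1 replicate 1, and RPL41 lost it without shNTC replicate 1 or shHSF1 replicate 2. RPL41 also lost it with upper-quartile factors (edgeR adjusted p = 0.0625), and all 3 lost it with all 8 libraries in 1 fit.

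**Figure D2:**
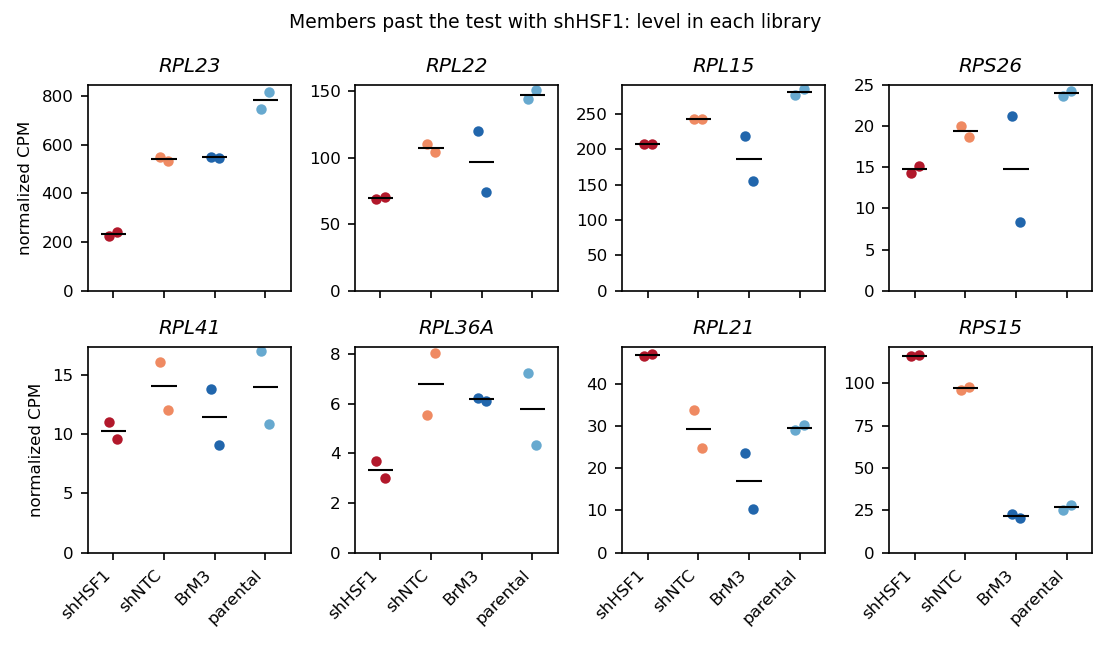
Level in each library (CPM, vertical axes from 0, scaled separately for the transduced and the untransduced sets) of the 6 members that fell and 2 that rose with shHSF1, with 2 points and their mean (line) per group. RPL23 stands at 226 and 241 CPM with shHSF1 and at 550 and 534 CPM with shNTC.

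The rises were at most 1.2-fold (RPS15) except for RPL21, a structural protein of the 60S subunit. RPL21 had 46.6 and 47 CPM with shHSF1, against 33.8 and 24.9 CPM with shNTC (log2 fold change 0.67 ± 0.13, 1.59-fold higher, edgeR adjusted p = 0.00235). The shHSF1 replicates were nearly equal and the shNTC replicates were not. RPL21 also has the most named pseudogenes of any member, 133. RPS15, which reaches toward the decoding site of the 40S head, had 116 and 117 CPM with shHSF1, against 96.4 and 97.9 CPM with shNTC (log2 fold change 0.26 ± 0.06, edgeR adjusted p = 0.00486). RPLP2, an acidic protein of the stalk that recruits translation factors, had 328 and 338 CPM with shHSF1, against 282 and 287 CPM with shNTC (log2 fold change 0.23 ± 0.05, edgeR adjusted p = 0.00701). The other 6 rises were in RPL36, RPS28, RPS7, RPS19, RPL8 and RPS18, with log2 fold changes of 0.16 to 0.24. Such small rises depended on the scaling and on single libraries. With upper-quartile factors 32 members were higher and 5 lower (42.7% and 6.67%), against 27.3% and 20.1% of all genes. With total counts 23 were higher and 6 lower (30.7% and 8%), against 24.8% and 21.4% of all genes. With offsets for GC content and length 4 were higher and 6 lower (5.33% and 8%), against 22.3% and 23.7% of all genes. With 1 library left out, the members' median ran from 0.04 (without shNTC replicate 2) to 0.11 (without shHSF1 replicate 1). Fewer of all tested genes passed in those fits as well. The members' median stood 0.07 above that of all tested genes under TMM, RLE, upper-quartile and total-count scaling alike. A change of scaling moves every gene by nearly the same amount, so this agreement was bound to appear and is no check of the difference.

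**Figure D3:**
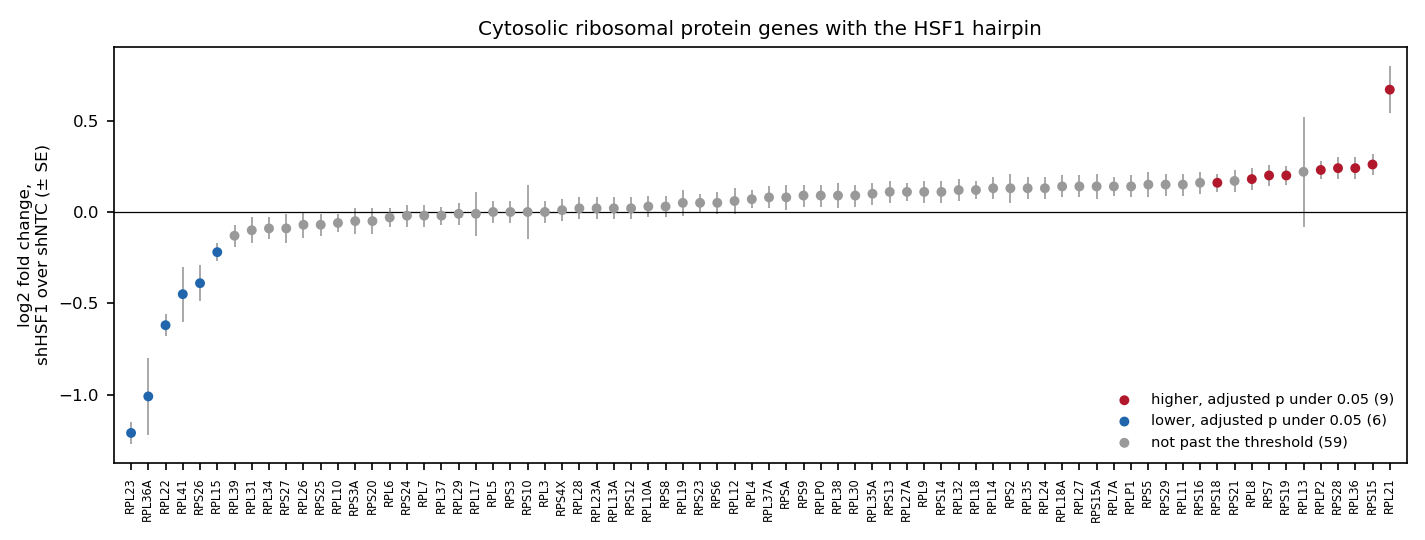
Log2 fold change of shHSF1 over shNTC (vertical axis, ± SE) for 74 of the 75 tested members in rising order, with calls coloured (adjusted p under 0.05). The 6 lower members reach from RPL15 at -0.22 to RPL23 at -1.21, RPL21 is highest at 0.67, and most members lie near 0.

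The stalk genes all had both shHSF1 libraries above both shNTC libraries, and RPLP2 was the 1 that passed. RPLP1 had 585 and 629 CPM with shHSF1, against 543 and 556 CPM with shNTC (log2 fold change 0.14 ± 0.06, edgeR adjusted p = 0.0747), and RPLP0 had 704 and 734 CPM, against 684 and 668 CPM (0.09 ± 0.06, edgeR adjusted p = 0.23). Differences between these genes were not tested. In the 5S particle, which binds MDM2 when it is free, RPL11 had 478 and 506 CPM with shHSF1, against 438 and 446 CPM with shNTC. That was a log2 fold change of 0.15 ± 0.06, just short of the threshold (edgeR adjusted p = 0.0506). RPL5 had 1179 and 1226 CPM with shHSF1, against 1238 and 1167 CPM with shNTC, groups that overlapped (edgeR adjusted p = 0.999). Of 8 proteins that line the peptide tunnel or its exit, 0 passed in edgeR and 0 in DESeq2, with 1 at an unadjusted edgeR p under 0.05, and their median log2 fold change was 0. Of 4 proteins at the mRNA entry and decoding face, RPS15 was the 1 that passed. Of 18 tested genes in which mutations cause Diamond-Blackfan anaemia, an inherited failure of red cell production, 3 were higher (RPS28, RPS19 and RPS7) and 2 lower (RPS26 and RPL15), with a median of 0.11. Called genes in edgeR made up 27.8% of that list, 25% of the decoding face list and 0% of the tunnel list, against 45.7% of all tested genes. They were 33.3% of the stalk genes and 0% of the 5S particle.

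Ribosomal genes outside the rule were tested in the same fit. RACK1, a signalling scaffold on the 40S head, had 1126 and 1157 CPM with shHSF1, against 989 and 1010 CPM with shNTC (log2 fold change 0.19 ± 0.06, edgeR adjusted p = 0.0187). RPS27A and FAU, which encode a ribosomal protein fused to ubiquitin or a ubiquitin-like domain, had log2 fold changes of -0.01 and 0.06 and did not pass. Of 6 tested near copies of members, RPL39L (0.26 ± 0.08, edgeR adjusted p = 0.0171) and RPL26L1 (0.26 ± 0.10, edgeR adjusted p = 0.049) rose on the log2 scale. Called genes were 33.3% of the near copies and 25% of the ribosomal genes outside the rule, against 45.7% of all tested genes. RACK1 lost its call with any 1 of the 4 libraries left out, RPL26L1 did so too and also with DESeq2, and RPL39L lost it without either shNTC library or shHSF1 replicate 2. Of 17 tested translation factors and other mRNAs with a TOP motif, 3 were higher and 3 lower, with a median of 0.10. EIF3F, a subunit of initiation factor eIF3, had 43.4 and 46 CPM with shHSF1, against 73.9 and 67.7 CPM with shNTC (log2 fold change -0.66 ± 0.07, edgeR adjusted p = 7.15e-05). EEF1B2, which recharges the elongation factor eEF1A, had 100 and 107 CPM with shHSF1, against 85.4 and 84.7 CPM with shNTC (log2 fold change 0.28 ± 0.06, edgeR adjusted p = 0.00487). The 6 calls are 35.3% of these TOP mRNAs, against 45.7% of all tested genes. Of 8 noncoding snoRNA host genes, most of which are TOP transcripts, ZFAS1 rose (log2 fold change 0.55, edgeR adjusted p = 0.000111) and SNHG1 fell (-0.42, edgeR adjusted p = 0.0024). Of 6 genes for escorts or binding partners of ribosomal proteins, RPS19BP1 had a log2 fold change of -0.31 (edgeR adjusted p = 0.0353). Called genes were 25% of the host genes and 16.7% of the escorts and partners, again against 45.7% of all tested genes. RPS19BP1 had 48.3 and 61.7 CPM with shHSF1, against 68.4 and 67.5 CPM with shNTC, so its fall leaned on shHSF1 replicate 1. Its log2 fold change was -0.14 without that library and -0.49 without shHSF1 replicate 2. It missed the threshold with upper-quartile or total-count scaling, or without shHSF1 replicate 1 or either shNTC library.

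Genes of mTORC1 signalling and of TOP mRNA control held a larger fold change than any member. Of 12, 2 were higher and 6 lower (66.7% called, against 45.7% of all tested genes), with a median log2 fold change of -0.15. AKT1S1, the PRAS40 subunit that restrains mTORC1, had 30.3 and 29.3 CPM with shHSF1, against 186 and 176 CPM with shNTC (log2 fold change -2.60 ± 0.07, 6.08-fold lower, edgeR adjusted p = 2.66e-08). MLST8, a shared subunit of the mTOR complexes, had 34.2 and 38.5 CPM with shHSF1, against 67.8 and 68.1 CPM with shNTC, and EIF4EBP2, a translational repressor, fell by 0.86 on the log2 scale. RHEB, the activator of mTORC1, rose by 0.30 and TSC1, its inhibitor, by 0.35 on the same scale. LARP1, which binds TOP mRNAs, had 597 and 588 CPM with shHSF1, against 639 and 588 CPM with shNTC (edgeR adjusted p = 0.531). The list thus holds activators and inhibitors that moved in both directions. Of 75 tested mitochondrial ribosomal proteins, the machinery of translation inside mitochondria, 11 were higher and 17 lower, with a median of -0.01 on the log2 scale and with MRPL57 lowest among those called (-0.74). In that list 37.3% of genes passed, against 20% of the members and 45.7% of all tested genes.

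In the metastatic subline, ribosomal protein genes lay below PC9 parental almost throughout, but the spread between its replicates left 1 call. Of 75 tested members, 74 had a log2 fold change below 0, against 48.9% of all 17372 tested genes. The median was -0.68, with an interquartile range from -0.86 to -0.46, against 0.01 for all tested genes. In 69 members (92%) both PC9-BrM3 libraries were below both PC9 parental libraries, while groups did not overlap, in either direction, for 59% of all genes. RPL12 was the 1 member that fell past the threshold (1.33% of members, against 3.27% of all genes lower and 7.14% in either direction). Higher calls numbered 0 (3.87% of all genes), also with DESeq2, and 0 members were higher at an unadjusted p under 0.05, while 41 were lower (54.7%, against 11.7% of all genes). DESeq2 called 17 members lower (22.7%, against 5.74% of all genes). RPL36A, at 6.23 and 6.11 CPM in PC9-BrM3, against 7.22 and 4.35 CPM in PC9 parental, was the member with a fold change above 0 (0.09 ± 0.29 on the log2 scale).

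RPL12, at the base of the stalk, had 369 and 366 CPM in PC9-BrM3, against 586 and 619 CPM in PC9 parental. Its replicates agreed in both groups and the groups stood well apart (log2 fold change -0.71 ± 0.14, 1.64-fold lower, edgeR adjusted p = 0.0409). The call was lost when either PC9 parental library was left out, with the fold change between -0.82 and -0.68 under all alternatives. RPL14 had 279 and 306 CPM in PC9-BrM3, against 441 and 462 CPM in PC9 parental, a log2 fold change of -0.62 ± 0.14 that missed the threshold (edgeR adjusted p = 0.0611). RPS24, of the 40S subunit, had 797 and 758 CPM in PC9-BrM3, against 1175 and 1163 CPM in PC9 parental (-0.59 ± 0.15 on the log2 scale, edgeR adjusted p = 0.0756). RPL23, the largest fall with the HSF1 hairpin, had 551 and 544 CPM in PC9-BrM3, against 747 and 818 CPM in PC9 parental (-0.52 ± 0.15, edgeR adjusted p = 0.0983). These 4 are among the 15 members whose PC9-BrM3 replicates lay within 0.2 of each other on the log2 scale; RPL14, RPS24 and RPL23 were picked for that after their values were seen.

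The other members differed between the PC9-BrM3 libraries, some by several fold. RPL10, which joins the 60S subunit in its last steps of assembly, had 673 and 105 CPM in PC9-BrM3, against 606 and 695 CPM in PC9 parental. Its replicate 1 lay within the PC9 parental range and its replicate 2 far below it. RPS3A, an early protein of the 40S subunit, had 131 and 27.4 CPM in PC9-BrM3, against 188 and 177 CPM in PC9 parental, and RPS19, also of the 40S subunit, had 296 and 74 CPM, against 361 and 409 CPM. For these 3 genes the standard error of the log2 fold change was 0.59 to 0.76. Other members were nearly level or went the other way in replicate 2. RPL26, at the tunnel exit, had 178 and 275 CPM in PC9-BrM3, against 260 and 253 CPM in PC9 parental, and RPS25 had 761 and 938 CPM, against 874 and 923 CPM. Between the replicates, the ratio of replicate 2 to replicate 1 had a median of -0.64 over members on the log2 scale, with 65 members lower and 10 higher, and a range of -2.67 to 0.63. For all tested genes the same median was -0.01. Over the 75 members that ratio did not follow transcript GC content (Pearson 0.01, Spearman -0.02) or transcript length (Pearson -0.01, Spearman -0.04). Across 17633 genes it went weakly with transcript length (Spearman 0.21) and not with GC content (Pearson -0.05). Shorter transcripts thus tended to be lower in replicate 2, and the part of length in the members' fall was not tested.

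Each PC9-BrM3 library was therefore also set against the PC9 parental mean by itself. In replicate 1, 73 of 75 members were below that mean, with a median log2 ratio of -0.37 and a lowest value of -0.71. In replicate 2, 71 were below it, with a median of -1.08, and 39 were below it by more than 1 on the log2 scale. The PC9 parental libraries had medians of -0.04 and 0.04. Both PC9-BrM3 libraries were low, and they were low by different amounts and in a different order of genes. With PC9-BrM3 replicate 2 left out, 62 members were lower and the median was -0.39, in a comparison in which 30.8% of all genes passed in either direction. With replicate 1 left out, 68 were lower and the median was -1.08, with 51.1% of all genes passing. In both of these fits the lone PC9-BrM3 library is assumed to vary like the PC9 parental pair. With either PC9 parental library left out, 0 members were lower in edgeR. The mitochondrial chromosome share of counts was 5.40% and 17.3% in PC9-BrM3 and 6.23% and 4.20% in PC9 parental, and its part in the result was not tested.

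**Figure D4:**
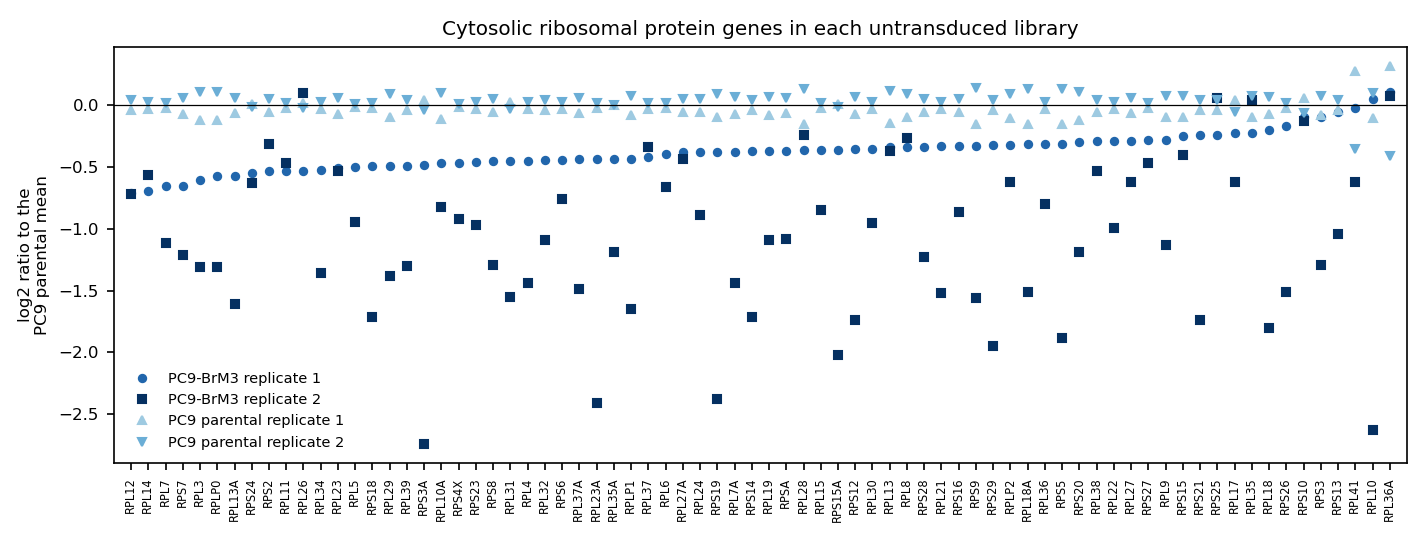
Log2 ratio of each untransduced library to the PC9 parental mean (vertical axis) for 74 of the 75 tested members, in the order of PC9-BrM3 replicate 1. Replicate 1 has a median of -0.37 and replicate 2 of -1.08 with wide scatter, while the PC9 parental libraries stay near 0 except for RPL41 and RPL36A.

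By role, the 3 stalk genes had a median log2 fold change of -0.89 and the 2 genes of the 5S particle of -0.60 in PC9-BrM3 against PC9 parental. RPLP0 had 612 and 366 CPM in PC9-BrM3, against 835 and 984 CPM in PC9 parental (edgeR adjusted p = 0.115). RPL5 had 1295 and 953 CPM in PC9-BrM3, against 1809 and 1842 CPM in PC9 parental (edgeR adjusted p = 0.102). The 46 genes of the 60S subunit had a median of -0.64 and the 29 tested genes of the 40S subunit of -0.69. Genes outside the rule gave a mixed picture. RPL22L1 had 115 and 70.9 CPM in PC9-BrM3, against 224 and 239 CPM in PC9 parental, and passed (log2 fold change -1.32 ± 0.25, edgeR adjusted p = 0.038), though not with total counts or without either PC9 parental library. Its partner RPL22 had 120 and 74.2 CPM in PC9-BrM3, against 144 and 151 CPM in PC9 parental (-0.60 ± 0.25 on the log2 scale, edgeR adjusted p = 0.204). Among 17 translation factors and other TOP mRNAs the median was -0.32, and the helicase EIF4A2 fell, at 468 and 489 CPM in PC9-BrM3, against 778 and 887 CPM in PC9 parental (edgeR adjusted p = 0.0381). That call was lost with the replicate block and without either PC9 parental library. Medians were -0.64 for 8 snoRNA host genes, -0.14 for 76 mitochondrial ribosomal proteins (1 lower, MRPS27), 0.11 for 6 escorts and binding partners and 0.15 for 12 mTORC1 genes. FAU had 59.1 and 37.2 CPM in PC9-BrM3, against 47.3 and 50.5 CPM in PC9 parental, and PABPC1, the poly(A) binding protein with a TOP mRNA, 1957 and 3626 CPM, against 2744 and 2833 CPM. Neither of those pairs of groups separated.

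Levels cannot be compared safely between the transduced and untransduced libraries, and the members show how far they differ. Relative to PC9 parental, shNTC was higher by 2.09 on the log2 scale for RPS28, by 2.04 for RPLP2, RPLP1 and RPL36 each, and by 1.75 for RPS15, and it was lower for RPS15A (log2 ratio -1.20). RPS15, for example, had 96.4 and 97.9 CPM with shNTC and 25.3 and 28.4 CPM in PC9 parental, each scaled within its own set. Across the 75 members this ratio went with the GC content of the longest transcript (Pearson 0.65, Spearman 0.59), and across 17633 genes it did so too (Pearson 0.57). Genes of 1 library are not independent points, and each of these ratios rests on the same 4 libraries for all genes. Against untransduced PC9-BrM3, the same subline, shNTC was higher by 2.81 for RPS28, 2.58 for RPL36 and 2.51 for RPLP2 on the log2 scale, and the ratio went with GC content alike (Pearson 0.63, Spearman 0.59). Transduction, puromycin, doxycycline and the lane differ between shNTC and PC9-BrM3 and cannot be told apart. Within the transduced set, the knockdown fold change of members went weakly with GC content as well (Pearson 0.30, Spearman 0.43), and RPS15, RPS28, RPL36, RPLP2, RPL8 and RPS18 lost their calls when GC content and length were offset in the fit. The 6 lower members, RPL21, RPS7 and RPS19 kept theirs. By rank, the knockdown fold change was also lower in members with more named pseudogenes (Spearman -0.35, Pearson -0.12). The part of lost reads in it was not tested.

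**Figure D5:**
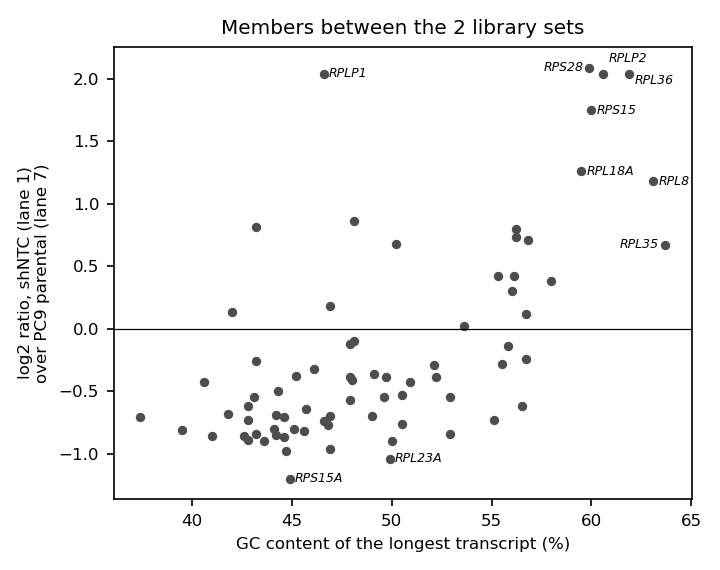
Log2 ratio of shNTC (lane 1) to PC9 parental (lane 7) for the 75 tested members (vertical axis) against the GC content of the longest transcript (%, horizontal axis), 1 point per gene. RPS28, RPLP2, RPLP1 and RPL36 stand highest, at 2.04 to 2.09, and RPS15A lowest at -1.20.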

How the data were processed

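Per the file headers, the authors assigned first reads to Ensembl genes with featureCounts 1.6.1 (exons, reverse strand, GRCh37) and deposited the raw counts. The headers show no option to count reads that map to several places or overlap several genes, so such reads are missing, which bears on genes with many pseudogenes. Trim Galore, HISAT2 and DESeq2 are also listed, per the submitters' processing notes. Symbols came from GENCODE v29 by gene ID (52526 of 63677 IDs), with transcript GC content and length.

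The members and gene lists were chosen with earlier results of these data known. edgeR 4.0.16 in R 4.3.3 was fitted to the 4 libraries of each comparison after filterByExpr (at least 10 counts, 15 in total), with TMM factors, the robust quasi-likelihood F test and Benjamini-Hochberg adjustment over all tested genes at a threshold of 0.05. CPM are counts over TMM-scaled library sizes of the 4 libraries compared. RPKM and ratios between lanes used 1 scaling of all 8. The tests were tried on simulated counts first. DESeq2 1.42.0, other scalings, filters, offsets and fits, and each library left out, were the alternatives. Totals were 33550140 to 56715336 counts. Limits from a count of 0 hold for counting error alone.

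The replicates of every group differed beyond sampling noise (chi-square over its degrees of freedom 10.9 to 301 for all genes), so no library was treated as a copy. Genes were named by a rule: HSF1, up to 8 members per direction and comparison past the test with groups apart, the stalk and 5S particle, the extremes in level and in replicate spread, all genes outside the rule and near copies, and up to 3 per direction of each other list. LARP1, RPS18, RPL14, RPS24, RPL26, RPS25, RPS15A and PABPC1 were named outside it after their values were seen. Some genes chosen by the rule are not reported here.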

Additional observations from a re-analysis of the deposited data

How the results depend on the processing

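With the HSF1 hairpin, 9 members were higher and 6 lower (12% and 8%, against 22.2% and 23.5% of all genes). The number higher was 32 with upper-quartile factors, 23 with total counts, 0 with all 8 libraries in 1 fit, 4 with GC and length offsets, and 4 to 7 when each library was left out in turn. The number lower was 3 with all 8 libraries and 4 to 6 with each library left out. The members' median log2 fold change of 0.07 became 0.14 with upper-quartile factors, which moved the median of all tested genes to 0.07 as well. The fit of all 8 libraries takes in the wider spread of the PC9-BrM3 pair. In that fit 0% of members were higher and 4% lower with shHSF1, against 9.04% and 12.3% of all genes. In PC9-BrM3 against PC9 parental, the number lower was 1, and it was 0 with total counts, 31 with no count filter, 17 with DESeq2, 37 with all 8 libraries, and 0 to 68 with each library left out. The median was -0.68 and ran from -1.08 to -0.39 over these settings. Lower calls were 40.8% of members with no count filter, against 5.01% of all genes. They were 22.7% against 5.74% with DESeq2, 49.3% against 10.1% with all 8 libraries, and 0% against 2.61% with total counts. Fits with a library left out have 1 library in a group, so no shares are given for them here. The mean shNTC share of 3.20% became 3.29% without mitochondrial genes, and the median level of a member, 96.2 RPKM per exon length, became 156 with the longest transcript as the length, by construction. For the other changes the cause was not tested. Single genes kept their side of the threshold in 618 fits with the HSF1 hairpin and 297 of the subline, lost the call in 87 and 15, and gained one in 10 and 52; no named call changed sign. RPL23, RPL22 and RPL36A kept theirs in all 13 alternatives.

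Replicate numbers were used as a block only as an alternative. Same-numbered libraries did not deviate together (correlation of deviations 0.00 with the HSF1 hairpin and 0.01 in the subline comparison). With 1 difference between replicates per group, this cannot tell whether same-numbered libraries were grown or prepared together, and the labels do not say. With the replicate block, 13 members were higher and 6 lower with shHSF1 (17.3% and 8%, against 23.1% and 24.5% of all genes), with a median of 0.07. In PC9-BrM3 the block gave 2 lower (2.67%, against 3.52% of all genes) and a median of -0.72, and RPL12 was not among the calls. Depth limits members under 10 CPM such as RPL36A and RPS10, for which counts of 102 to 423 and 122 to 237 per library set the precision.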
